A study of Mus musculus with 23 samples.

Results

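CC001F1 tumors were the 4 MC38 tumors grown in F1 hosts of C57BL/6J and the Collaborative Cross line CC001/UncJ, out of 23 tumors in 6 host lines. They were chosen by the genotype in the labels and compared with the 8 tumors of CC002F1 (CC002/UncJ) and CC075F1 (CC075/UncJ) hosts, 4 in each line. These are the 3 lines that the study classes as responders to an antibody against PD-1 (aPD1). That class is stated in the study's text, and the labels do not give it. The other 11 tumors, of CC036F1, CC079F1 and CC080F1 hosts, serve only as a reference here. All hosts were females of 8 to 12 weeks, and all shared 1 C57BL/6J parent. A tumor of 75 to 110 mm3 received 200 µg of isotype control antibody or of aPD1 into the peritoneum, and the mouse was killed 48 h later. In each of the 3 responder lines, 2 tumors had isotype and 2 had aPD1. The replicates are labelled as separate biological replicates, 1 tumor each.

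MC38 is a colon carcinoma cell line of C57BL/6 origin, so the cancer cells were the same in every host and only the host tissue differed in inherited sequence. The Collaborative Cross is a panel of inbred mouse lines that mix the genomes of several founder strains. An F1 host therefore carries 1 C57BL/6J copy of each autosomal gene and 1 copy that descends from a founder. Different lines can share a founder's copy, and both copies of a host can be alike, as the study describes at the MHC locus. A bulk tumor holds cancer cells together with macrophages, lymphocytes, fibroblasts and vessels, so that fewer cells of a type and less RNA per cell cannot be told apart in these data. PD-1 is an inhibitory receptor of T cells, and antibodies that block it can release T cell killing and interferon-gamma secretion in the tumor.

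The 12 responder libraries held 14494014 to 71868253 estimated counts, with 2 shallow libraries under 25000000, CC001F1 isotype replicate 2 (17662175) and CC075F1 aPD1 replicate 2 (14494014). CC001F1 aPD1 replicate 2 stood apart in interferon-induced genes, as given below beside the results it touches. Skeletal muscle genes were high in 2 of the 4 CC001F1 tumors and in 1 CC075F1 tumor. Over the 10 muscle markers, the summed level was 295 CPM (counts scaled to a common library total) in isotype replicate 1 and 665 CPM in aPD1 replicate 1, against 2.76 and 1.63 CPM in the remaining tumors of the line. Among the 8 other responder tumors, CC075F1 aPD1 replicate 1 had 243 CPM and the rest had 1.47 to 49.6 CPM.

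The first question was which genes set CC001F1 tumors apart from the other responder tumors, whatever the antibody. With antibody as a term, 72 of 18543 tested genes passed an adjusted p of 0.05 in DESeq2 (0.388%). CC001F1 was higher in 33 (0.178%) and lower in 39 (0.21%). The most raised genes included the metalloproteases Adamdec1, Mmp12 and Mmp13 and the interferon-induced GTPases Mx1 and Mx2. The most lowered genes with a sequence of their own included Pianp, Gm26649, Gdf3 and Dnah8. The quasi-likelihood test of edgeR called 24 genes, 15 higher and 9 lower, and 23 of them were among the 72. Without CC001F1 aPD1 replicate 1, DESeq2 called 110 genes, and 34 of the 72 calls held whichever of the 12 tumors was left out. The median log2 difference over all tested genes was 0.0014.

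For 48 of the 72 called genes, the 4 CC001F1 values and the 8 other values did not overlap, 25 with CC001F1 on top and 23 with it at the bottom. Over all tested genes 0.599% were separated in this way, 0.297% upward and 0.302% downward. The CC001F1 values of 16 called genes also lay outside all 19 tumors of the other 5 lines, 14 above and 2 below, against 0.129% of all tested genes (0.0971% above and 0.0324% below). Values below are normalized counts on the DESeq2 size-factor scale of the 12 responder tumors. They compare tumors for 1 gene and not genes with each other.

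Near-identical copies of genes hold a large place among the strongest calls. When every 100-base window, the read length, of a called gene's longest transcript was looked up in the transcripts of all other genes, 5 of the 33 higher and 11 of the 39 lower calls had at least 20% of their windows in another gene. The median log2 difference was 4.99 for these 5 and 1.18 for the other 28 higher calls, and -5.38 for these 11 and -1.20 for the other 28 lower calls. The estimated counts of such genes depend on how shared reads were split, and the model error does not cover that split. They are described apart from the genes with their own sequence.

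Metalloproteases of the tumor stroma come first among the genes with their own sequence. Adamdec1 encodes a decysin, a secreted metalloprotease made by macrophages and dendritic cells (chromosome 14, 68563380 to 68582095, GRCm38). It reached 244 and 192 normalized counts in the isotype tumors and 195 and 261 in the aPD1 tumors of CC001F1. In the 8 other responder tumors it ran from 0 to 13.8 with a median of 3.11, and the highest of all 11 non-responder tumors had 29.0. Every CC001F1 tumor therefore lay above all 19 others, and the log2 difference was 5.56 (SE 0.45, DESeq2 adjusted p 3.00e-30). The quasi-likelihood test of edgeR gave 5.50 with an adjusted p of 5.99e-05.

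Mmp12, the macrophage metalloelastase, and Mmp13, collagenase 3, lie 71.9 kb apart on chromosome 9 in the cluster of matrix metalloproteases, enzymes that cut elastin, collagen and other matrix proteins. Mmp13 had 1715 and 1717 normalized counts in the CC001F1 isotype tumors and 1664 and 3562 in the aPD1 tumors. The other 8 tumors had 76.7 to 495 with a median of 308, so the groups did not overlap (log2 difference 2.99, SE 0.46, DESeq2 adjusted p 1.39e-07). Mmp12 was even across the line, with 4058 and 3433 in the isotype and 3547 and 3937 in the aPD1 tumors. The other responder tumors had 162 to 1588 with a median of 751 (log2 difference 2.25, SE 0.43, DESeq2 adjusted p 8.78e-05). High Mmp12 was not limited to CC001F1, because 3 of the 4 CC036F1 tumors reached 3955, 4780 and 13175.

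Between and beside these genes, the other metalloproteases of the cluster did not pass the test. Mmp8, neutrophil collagenase, differed by 1.94 (SE 0.69), Mmp3, stromelysin 1, by -1.03 (SE 0.56) and Mmp27 by -0.06 (SE 0.59) on the log2 scale. The 250 bases before the annotated starts of the 2 raised genes are shown because both changed in the same tumors, with the AP-1 letters TGACTCA, searched on both strands, in capitals. The sequences are the RefSeq reference of C57BL/6J (GRCm38.p6), and the allele of CC001/UncJ was not analysed here. Mmp13 is read on the plus strand at chr9:7272264-7272513 and Mmp12, at the second of its 2 listed starts, on the plus strand at chr9:7347124-7347373.
Mmp13: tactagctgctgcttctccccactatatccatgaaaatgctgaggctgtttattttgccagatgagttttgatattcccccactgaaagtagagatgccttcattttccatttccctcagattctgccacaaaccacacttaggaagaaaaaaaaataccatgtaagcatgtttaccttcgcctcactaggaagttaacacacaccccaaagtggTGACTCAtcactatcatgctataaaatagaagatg
Mmp12: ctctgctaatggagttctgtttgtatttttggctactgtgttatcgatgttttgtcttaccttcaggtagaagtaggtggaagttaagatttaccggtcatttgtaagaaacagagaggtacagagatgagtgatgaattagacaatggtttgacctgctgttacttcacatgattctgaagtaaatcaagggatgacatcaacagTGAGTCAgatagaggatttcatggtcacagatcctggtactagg
The match begins 35 bases before the start of Mmp13 and 44 bases before that of Mmp12, and the window of the other Mmp12 start had none. Of 32851 windows of this length in the same promoter collection, 4.46% held the letters. The match is a description of the reference and not a site shown to be used.

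**Figure D1:**
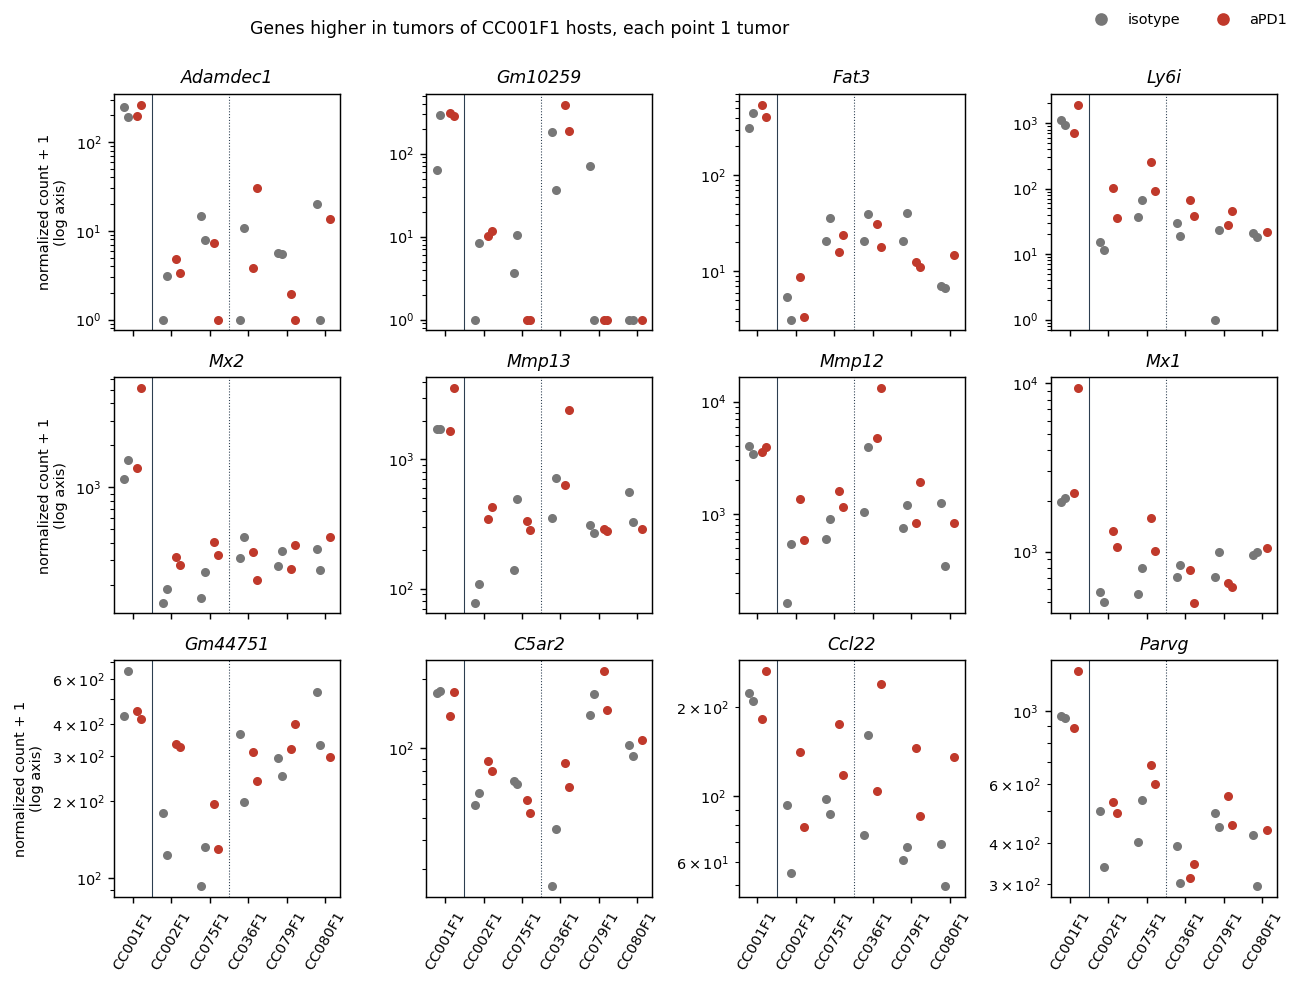
Normalized counts plus 1 on a log axis for the 12 named genes that were higher in CC001F1, 1 point per tumor, by host line on the x axis and antibody by color. The solid line separates CC001F1 from the others, and the dotted line separates the other responder lines from CC036F1, CC079F1 and CC080F1. Adamdec1, Fat3, Ly6i, Mx2, Mx1 and Parvg in CC001F1 lie above every other tumor. Mmp12, Mmp13, C5ar2 and Gm10259 overlap with tumors of CC036F1 or CC079F1, and Ccl22 overlaps with tumors of the non-responder lines.

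Interferon-induced antiviral genes followed. Mx1 and Mx2 encode dynamin-like GTPases that interferons switch on and that block viruses inside the cell, and many laboratory strains carry defective copies. The genes neighbor each other on chromosome 16 with left ends 88.3 kb apart. Mx2, which the annotation lists as a polymorphic pseudogene, had 1142 and 1555 normalized counts with isotype and 1366 and 5130 with aPD1 in CC001F1. In the 8 other responder tumors it had 148 to 401 with a median of 261 (log2 difference 3.09, SE 0.32, DESeq2 adjusted p 5.54e-19). Mx1 had 1966, 2075, 2221 and 9368 in the same order of CC001F1 tumors, against 498 to 1580 with a median of 900.3 (log2 difference 1.98, SE 0.33, DESeq2 adjusted p 2.08e-06). Both genes were above all 19 other tumors in each CC001F1 tumor, and aPD1 replicate 2 stood far above the other 3. Only 1.72% of the read-length windows of Mx2 were found in another gene, although a stretch of 921 bases was 94.8% identical to Mx1. Without CC001F1 aPD1 replicate 2, both calls held.

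The remaining interferon genes did not separate the lines. Of 15 genes of a type I interferon response list, 2 were called, both higher (Mx1 and Mx2, beside 0.178% of all tested genes called higher), and the list's median log2 difference was 0.45. Isg15 differed by 0.32 (SE 0.19), Ifit1 by 0.36 (SE 0.26) and Irf7, the transcription factor that amplifies the response, by 0.53 (SE 0.34) on the log2 scale, none past the test. The summed level of the list was 429, 539 and 502 CPM in 3 CC001F1 tumors and 1686 CPM in aPD1 replicate 2, against 341 to 728 CPM in the other 8. The part of that tumor in the positive median was not tested.

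The receptor genes C5ar2 and C5ar1 were both called, while none of the genes on the macrophage, monocyte and neutrophil lists was. On the monocyte list 3 of 5 genes had positive differences. Among these, Ly6c2 (0.67, SE 0.42) and Plac8 (0.62, SE 0.35) differed about as much as C5ar1 but with larger errors. C5ar2 and C5ar1 encode the receptors for C5a, the complement fragment that attracts and activates neutrophils and macrophages, and their left ends lie 12.2 kb apart on chromosome 7. C5ar2 had 173 and 176 normalized counts with isotype and 136 and 175 with aPD1, against 51.6 to 87.3 with a median of 66.0 (log2 difference 1.27, SE 0.18, DESeq2 adjusted p 5.43e-09). CC001F1 was separate from both responder lines, but the CC079F1 tumors covered the same levels with 139 to 215. C5ar1 had 1991 and 2286 with isotype and 1930 and 2748 with aPD1, against 956 to 2041 with a median of 1256 (log2 difference 0.73, SE 0.15, DESeq2 adjusted p 0.000492). Its groups overlapped. The 31 other tested genes shown around this pair were not called.

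Ly6i, a small surface protein of the Ly6 family, was at 1128 and 926 normalized counts with isotype and 702 and 1892 with aPD1 in CC001F1, and at 10.6 to 255 with a median of 51.0 in the other 8 tumors (log2 difference 4.28, SE 0.63, DESeq2 adjusted p 1.94e-08). All 4 tumors lay above all 19 others, and none of its 15 tested neighbors within 500 kb was called. Ccl22, a chemokine that draws CCR4-bearing T cells and is made by mature dendritic cells and macrophages, had 222, 209, 181 and 264 against 54.3 to 175 with a median of 94.5 (log2 difference 1.10, SE 0.24, DESeq2 adjusted p 0.00200). The highest non-responder tumor had 240, so Ccl22 was not above all 19 other tumors. The edgeR adjusted p was 0.154, and without CC001F1 isotype replicate 1 the DESeq2 adjusted p was 0.0847. Parvg, an adaptor between integrins and actin in blood cells, had 967, 952, 889 and 1316 against 339 to 686 with a median of 515 (log2 difference 1.02, SE 0.15, DESeq2 adjusted p 5.48e-09). It was again above all 19 other tumors.

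Itgax, the integrin CD11c of dendritic cells and some macrophages, was called at 0.67 (SE 0.16, DESeq2 adjusted p 0.0120) with overlapping groups, 1899 to 3591 against 974 to 2067. Cxcl11, an interferon-induced ligand of CXCR3 on T cells, was called at 1.31 (SE 0.33, DESeq2 adjusted p 0.0216) with 263 to 702 against 82.2 to 376. Its edgeR adjusted p was 0.407. Leaving out 1 of 3 CC001F1 tumors ended the call of Itgax, with DESeq2 adjusted p of 0.175 (isotype replicate 1), 0.0935 (isotype replicate 2) and 0.316 (aPD1 replicate 2). That of Cxcl11 ended without any of 6 tumors, with DESeq2 adjusted p of 0.110, 0.405 and 0.316 for the same 3 and 0.0732, 0.0668 and 0.0528 without CC002F1 isotype replicate 1, CC002F1 aPD1 replicate 1 or CC075F1 isotype replicate 2.

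Further called genes were higher in CC001F1. Fat3, an atypical cadherin known from neurons, had 313 and 450 normalized counts with isotype and 541 and 409 with aPD1, against 2.13 to 34.6 with a median of 11.2 (log2 difference 5.03, SE 0.68, DESeq2 adjusted p 3.37e-10). The highest non-responder tumor had 40.0, so CC001F1 was above every other tumor. Fzd7, a Wnt receptor, had 1370 to 1656 against 969 to 1222 and was above all 19 other tumors too (log2 difference 0.45, SE 0.08, DESeq2 adjusted p 4.49e-05). Crym, a thyroid hormone binding protein, had 44.8 to 165 against 0 to 28.5, and Raet1e, a ligand of the killer cell receptor NKG2D, had 81.5 to 118 against 39.8 to 68.1. The long noncoding RNA Gm44751 had 415 to 642 against 92.2 to 332, but CC080F1 tumors reached up to 533. Phkg1, the muscle form of a phosphorylase kinase subunit, was 70.5 and 98.9 in the 2 CC001F1 tumors with high muscle genes and 26.4 and 28.2 in the other 2, against 13.8 to 18.4 in the other responder tumors. CC075F1 aPD1 replicate 1, with 243 CPM of muscle genes, had 15.8. The part of muscle tissue in that call was not tested. The call of Phkg1 was lost without CC001F1 isotype replicate 1 (DESeq2 adjusted p 0.135) or aPD1 replicate 1 (0.116), that of Crym without aPD1 replicate 2 (0.359), and that of Raet1e in 9 of 12 such fits.

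Among the lowered genes with their own sequence, Pianp, a membrane protein that binds an inhibitory receptor of myeloid cells, showed the largest difference. It had 6.61 and 9.62 normalized counts with isotype and 17.9 and 15.5 with aPD1 in CC001F1 (chromosome 6, 124996694 to 125003096). The 8 other tumors had 24.2 to 405 with a median of 293, and the lowest of these was CC075F1 isotype replicate 2 (log2 difference -4.45, SE 0.44, DESeq2 adjusted p 9.07e-21). CC001F1 was not alone at this level, since the 11 non-responder tumors had 4.19 to 20.1.

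Gdf3, a TGF-beta family ligand that macrophages can secrete, had 120 and 36.1 with isotype and 47.5 and 102 with aPD1, against 152 to 536 with a median of 286 (log2 difference -1.89, SE 0.32, DESeq2 adjusted p 3.58e-06). Its neighbor Apobec1, a cytidine deaminase that edits RNA, was called lower as well at -0.56 (SE 0.14, DESeq2 adjusted p 0.0119), with left ends 27.6 kb apart, but its groups overlapped and the call was lost without CC001F1 isotype replicate 1 (0.170) or aPD1 replicate 1 (0.0753). Nlrp1a, an inflammasome sensor of myeloid cells, had 59.2 to 114 against 122 to 316 (log2 difference -1.25, SE 0.23). Dysf, dysferlin of membrane repair, had 91.4 to 180 against 215 to 543 (log2 difference -1.36, SE 0.23). Gpihbp1, which anchors lipoprotein lipase on capillary endothelium, had 118 to 144 against 202 to 436 (log2 difference -1.30, SE 0.23). Dnah8, an axonemal dynein chain, had 25.5 to 46.0 against 63.1 to 242 (log2 difference -1.86, SE 0.34). The long noncoding RNA Gm26649 had 12.5 to 22.8 against 51.1 to 347 (log2 difference -3.22, SE 0.49). None of these 5 was separate from the non-responder tumors. Gdf3 and these 5 did not pass against all 5 other lines. With edgeR, Gdf3, Nlrp1a, Gpihbp1 and Dnah8 did not pass, and in aPD1 tumors alone Nlrp1a, Gpihbp1 and Dnah8 did not.

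Only 2 lower calls lay below all 19 other tumors. Kifc2, a kinesin of neurons, had 16.9 to 23.4 against 34.1 to 58.8 (log2 difference -1.18, SE 0.28, DESeq2 adjusted p 0.0121). Parp8, an ADP-ribosyltransferase, had 1248 to 1309 against 1350 to 1722 (log2 difference -0.26, SE 0.07, DESeq2 adjusted p 0.0302). The call of Kifc2 was lost without CC001F1 isotype replicate 1 (DESeq2 adjusted p 0.20) or aPD1 replicate 2 (0.0862), and that of Parp8 in 9 of the 12 fits without 1 tumor. Further lower calls were the chemokine Cxcl14 (at most 542 against 548 to 1166), the TGF-beta docking receptor Lrrc32 (146 to 209 against 218 to 379) and the ectonucleotidase Enpp1 (94.0 to 142 against 155 to 297). In the NK cell receptor complex on chromosome 6, Klra3, Klra9 and Klra14-ps were called lower, but at 0 to 26.4 normalized counts in CC001F1 and with overlapping groups. With 1 tumor left out, the call of Lrrc32 was lost in 3 of 12 fits (DESeq2 adjusted p 0.124 to 0.177, each without a CC001F1 tumor), that of Enpp1 in 5 (0.0782 to 0.285), those of Klra3 and Klra9 in 8 each (0.0514 to 0.288) and that of Klra14-ps without CC001F1 isotype replicate 1 (0.0521).

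**Figure D2:**
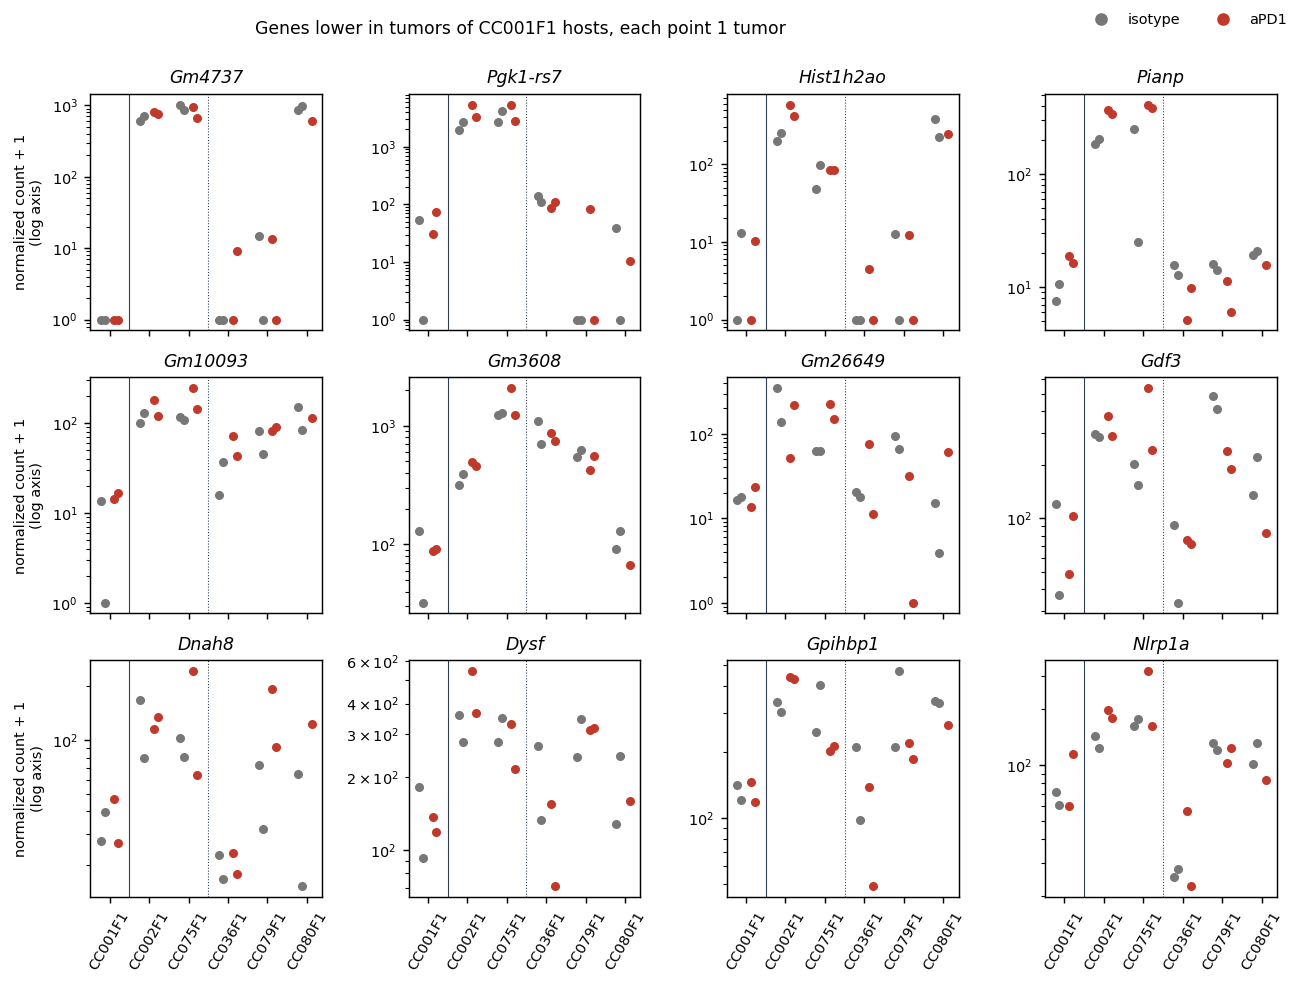
Normalized counts plus 1 on a log axis for the 12 named genes that were lower in CC001F1, 1 point per tumor, by host line on the x axis and antibody by color. The solid line separates CC001F1 from the others, and the dotted line separates the other responder lines from CC036F1, CC079F1 and CC080F1. Gm4737 is at 0 in all 4 CC001F1 tumors and near 0 in CC036F1 and CC079F1 but not in CC080F1, and Pianp is as low in the 3 non-responder lines as in CC001F1.

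A gene was taken as off or on when one side had at least 10 normalized counts in every tumor and the other at most 2. Among 24858 fitted genes, 1 was off in CC001F1 (0.00402%) and 1 was on in it (0.00402%), and both are close copies of other genes. Gm4737, annotated as protein coding on chromosome 16, had 0 counts in all 4 CC001F1 tumors and 593 to 1007 with a median of 773 in the 8 others. It was also near 0 in CC036F1 and CC079F1, which had 0 to 13.9, whereas CC080F1 had 604 to 966. Its transcript differs from Ahcy, the enzyme that breaks down S-adenosylhomocysteine, at 6 of 2083 aligned bases, and 87.2% of its read-length windows are found in another gene. The following read-length stretches of coding sequence are shown because they give the closeness of the copies. The Gm4737 stretch lies at chr16:46154539-46154638 on the minus strand of GRCm38, Ahcy lies on the minus strand of chromosome 2 from 155059310 to 155074497, and capitals mark the bases that differ.
Gm4737: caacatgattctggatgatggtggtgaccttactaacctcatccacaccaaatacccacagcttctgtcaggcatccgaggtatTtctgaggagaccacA
Ahcy: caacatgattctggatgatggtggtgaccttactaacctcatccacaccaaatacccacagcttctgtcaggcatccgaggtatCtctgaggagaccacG
This stretch holds 2 of the 6 differences. Ahcy itself had 14383 to 15956 normalized counts in CC001F1 and 11992 to 16352 in the other 8 tumors (log2 difference 0.07, SE 0.08). It was not called different. Summed over both genes, the log2 difference was -0.01. The counts of Gm4737 were small beside those of Ahcy, and how shared reads were split was not tested.

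Gm6457, a processed pseudogene on chromosome 18, had 18.4, 67.3, 19.5 and 45.6 in CC001F1 and 0 in each of the 8 others, and 1 of the 11 non-responder tumors had 2.43. Its call was lost without CC001F1 isotype replicate 1 (DESeq2 adjusted p 0.0847), aPD1 replicate 1 (0.0774) or aPD1 replicate 2 (0.232). It is 99.6% identical to Rsl24d1, which differed by 0.08 (SE 0.07) on the log2 scale. Acaa1b, a peroxisomal thiolase with 22.6% of its windows in another gene, came near this pattern with 31.2 to 64.9 against 0 to 4.44 (log2 difference 4.99, SE 0.58, DESeq2 adjusted p 2.42e-14). When a gap of 8-fold was asked for in place of the fixed limits, 5 genes were on or off, and these were Adamdec1, Fat3 and Gm6457 on and Gm4737 and Pgk1-rs7 off.

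For Pgk1-rs7, Hist1h2ao, Gm10093 and Gm3608 the closest gene was not called and differed by at most 0.25 on the log2 scale. The closest gene of Gm10259 differed about as much as the copy. Summed over copy and closest gene, the log2 differences were 0.13 (Pgk1-rs7), -0.09 (Hist1h2ao), 0.08 (Gm10093), 0.03 (Gm3608) and 5.24 (Gm10259). Pgk1-rs7, whose sequence is fully contained in Pgk1 of glycolysis, had 52.1, 0, 29.6 and 72.0 in CC001F1 against 1956 to 5316 with a median of 3043 (log2 difference -6.52, SE 0.54, DESeq2 adjusted p 3.39e-29). Pgk1 itself differed by 0.25 (SE 0.10) and was not called. Gm10259 (63.1, 293, 306 and 282 against 0 to 10.6) has 1 mismatch to Gm10184 in 1590 bases, and Gm10184 moved with it without being called (log2 difference 4.94, SE 1.5). Hist1h2ao, a histone H2A gene, had 0 to 12.0 against 46.8 to 574, and its twin Hist1h2ap differed by 0.01 (SE 0.12). Gm10093 and Gm3608, copies of Hdac1 and Capza1, had log2 differences of -3.62 (SE 0.31) and -3.45 (SE 0.57), while Hdac1 differed by 0.11 (SE 0.05) and Capza1 by 0.13 (SE 0.05). Among the calls outside the naming rule, Rnaset2a, a copy of Rnaset2b, had 0 to 3.89 against 14.3 to 96.4. Gm49368, whose transcript includes that of the macrophage integrin Itgam, had 67.3 to 200.4 against 5.55 to 41.1. Some calls rested on 1 comparison line alone. Gm10709 had 684 to 1015 in CC002F1 and at most 20.1 in CC001F1 and CC075F1, and Tpm3-rs7 had 845 to 1603 in CC075F1 and at most 41.4 in the others.

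The chromosomal position of the calls was examined next. With called genes of at least 10 mean counts and no overlap, chained where left ends lay within 500 kb, no cluster of 3 or more genes was found, and 3 pairs were, Mx1 with Mx2, Mmp13 with Mmp12, and Crym with 9030407P20Rik, which differed in opposite directions. With all called genes, a choice made after seeing the data, 2 clusters of at least 3 appeared. One held Mmp13, Mmp12, the pseudogene Gm10709 and Birc3, an inhibitor of cell death, over 576 kb, with 3 higher and 1 lower among 10 tested genes in the span. The other held Klra14-ps, Klra9 and Klra3, all lower, over 174 kb with 6 tested genes. Both included genes with overlapping groups, and the call of Birc3 was lost in 7 of the 12 fits that left out 1 tumor (DESeq2 adjusted p 0.0655 to 0.316). For 6 of the 12 higher and 11 of the 12 lower named genes no other tested gene within 500 kb was called. Among these, Gm10259 had 0 tested neighbors. Uncalled neighbors still differed by -1.63 to 2.26 around Ly6i and by -5.37 to 2.54 around Hist1h2ao on the log2 scale.

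**Figure D3:**
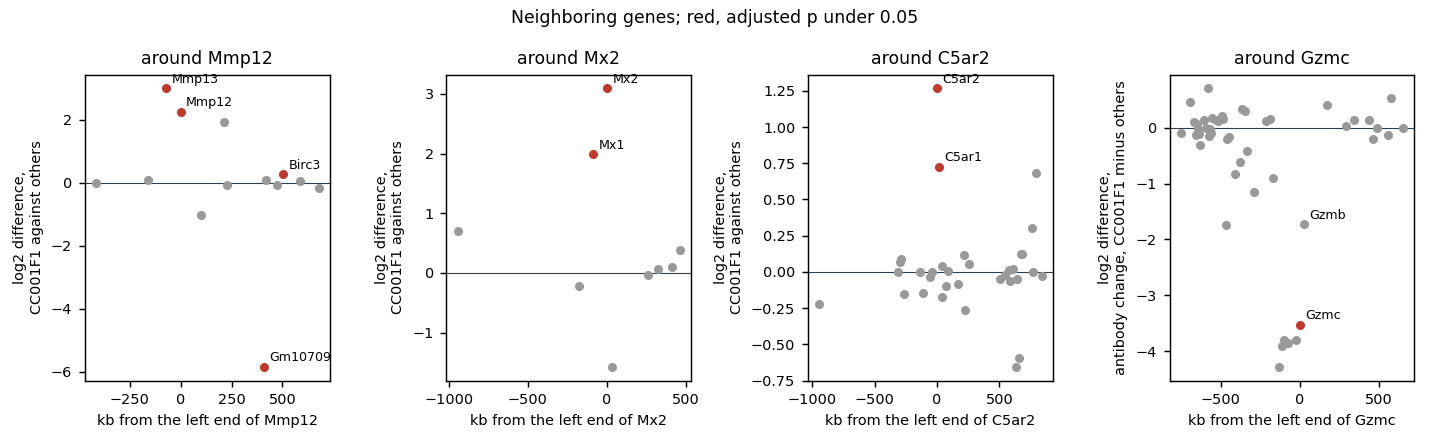
Log2 differences of tested genes (y axis) against the distance of their left ends, in kb, from Mmp12, Mx2 and C5ar2 for CC001F1 against the other responder lines, and around Gzmc for the difference in antibody change. Red points passed the adjusted p of 0.05. They include the pairs Mmp12 and Mmp13, Mx1 and Mx2, and C5ar1 and C5ar2, and near Mmp12 also Gm10709 (-5.84) and Birc3 (0.28). Some neighbors that did not pass lie away from 0, such as Mmp8 (1.94), Mmp3 (-1.03) and Tmprss2 (-1.57). Around Gzmc, Gzmd, Gzme, Gzmf and Gzmg lie at -3.79 to -3.90 without passing. Ctsg (-4.28), Ltb4r1 (-1.74) and Gzmb (-1.73) did not pass either.

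The second question was whether the immune makeup differed. Of 231 tested genes on 33 lists of immune, stromal and other markers, 6 were called (2.60%, against 0.388% of all tested genes), with Mx1, Mx2, Ccl22, Cxcl11 and C5ar1 higher and Ctla4 lower in CC001F1. No list had more than 2 called genes. Ctla4, an inhibitory receptor of activated and regulatory T cells, had 58.0 and 64.9 normalized counts with isotype and 73.2 and 162 with aPD1, against 75.7 to 327 with a median of 180 (log2 difference -1.11, SE 0.26, DESeq2 adjusted p 0.00719). Its groups overlapped, the edgeR adjusted p was 0.318, and the DESeq2 adjusted p was 0.0883 without CC001F1 isotype replicate 1 and 0.0740 without CC001F1 aPD1 replicate 1. Foxp3, the factor that defines regulatory T cells, differed by -0.25 (SE 0.29).

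With both antibodies fitted together, T cell, NK cell and macrophage genes showed no shift of their lists. None of 13 cytotoxic T cell genes was called, the median log2 difference was 0.10, and Cd8a ran from 337 to 1123 normalized counts in CC001F1, 261 to 909 in CC002F1 and 513 to 1397 in CC075F1. None of 7 NK cell genes was called (median -0.05), and none of 11 macrophage genes was (median -0.06). Csf1r differed by -0.10 (SE 0.12) and C1qa by 0.00 (SE 0.12). Of the 11 macrophage genes, 4 had positive differences. These were Lyz2 (0.48, SE 0.33), Itgam (0.33, SE 0.15), Cd68 (0.30, SE 0.14) and Mrc1 (0.18, SE 0.11). None of 18 genes of the interferon-gamma signature was called (median 0.09), and Cxcl9 differed by 0.10 (SE 0.27). In isotype tumors alone, CC001F1 sums lay above all of CC002F1 and CC075F1 for cytotoxic T cell genes (140 and 152 against 74.0 to 113 CPM). So did those of NK cell genes (41.7 and 43.8 against 20.9 to 34.5 CPM) and the interferon-gamma signature (3490 and 3678 against 2648.5 to 3279 CPM). Macrophage sums overlapped, as did every one of these sums with aPD1. The sums were not tested. The dendritic cell lists had medians from -0.13 to 0.14 with Ccl22 as their 1 call. Of 11 MHC class II genes, which present antigen to helper T cells, 9 had positive differences and none was called (median 0.38). H2-Ab1 differed by 0.66 (SE 0.19, DESeq2 adjusted p 0.0966). The summed level of the list was 2422, 2283 and 2396 CPM in 3 CC001F1 tumors and 4214 CPM in aPD1 replicate 2. CC002F1 had 943 to 2635 CPM and CC075F1 had 1272 to 3452 CPM. The isotype tumors of CC002F1 and CC075F1 had 943 to 2000 CPM, below both CC001F1 isotype tumors (2422 and 2283 CPM).

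Stromal and tumor-cell lists were alike in having no calls. Fibroblast genes had a median of -0.24, endothelial genes -0.13 and cell cycle genes -0.01. Skeletal muscle genes had the largest median, 2.49 over 4 tested genes, with high sums in 2 CC001F1 tumors and in CC075F1 aPD1 replicate 1 as given above, and no muscle gene was called. B cell genes summed to 4.21 to 7.27 CPM in CC001F1, 4.51 to 7.88 CPM in CC075F1 and 4.34 to 5.33 CPM in 3 CC002F1 tumors. CC002F1 isotype replicate 1 had 37.3 CPM together with 22.6 CPM of lymph node genes. The ratio of Cxcl9 to Spp1, a pair of macrophage polarity markers, was 0.824 and 1.05 with isotype and 0.934 and 2.49 with aPD1 in CC001F1, 0.645 to 1.86 in CC002F1 and 0.948 to 2.27 in CC075F1. The mean log2 ratio differed by -0.08 between CC001F1 and the others, with a two-sided exact permutation p of 0.796 over 225 assignments within antibody, where 0.00444 was the smallest p possible.

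**Figure D4:**
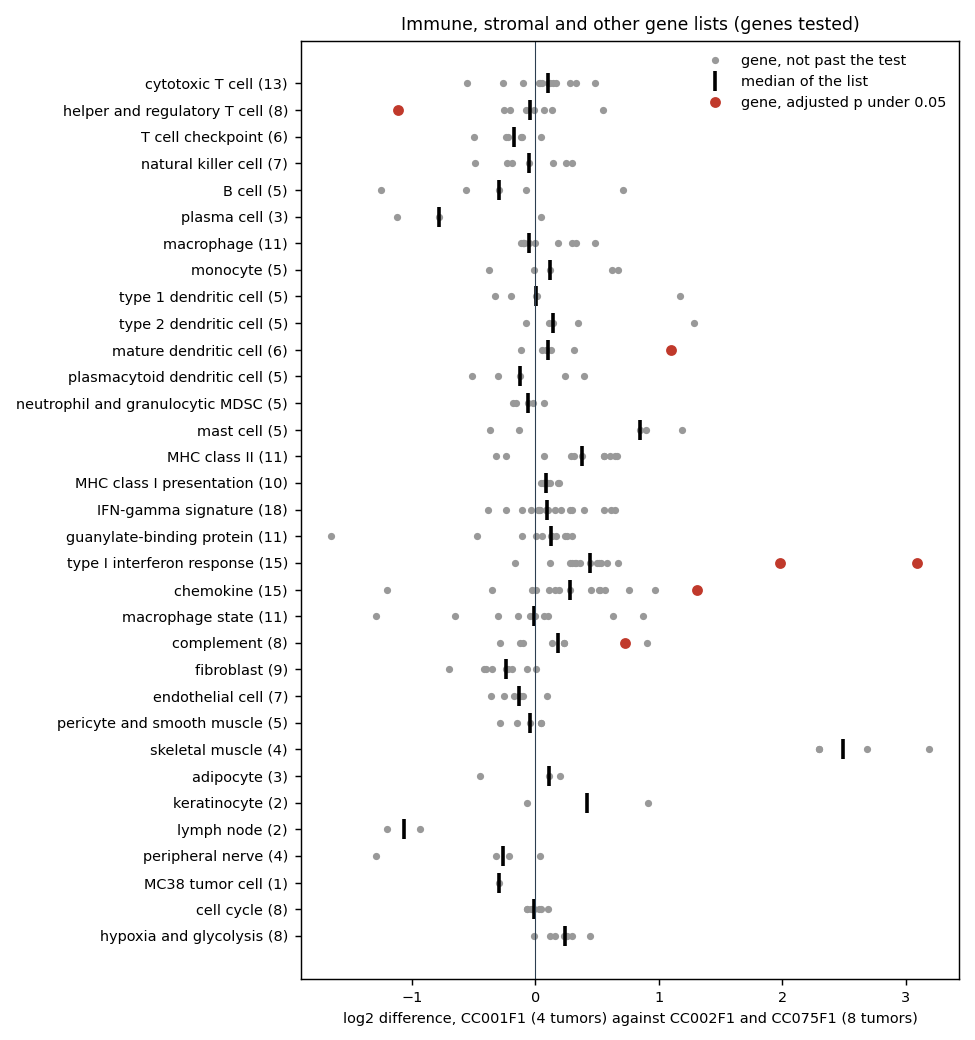
Log2 difference of CC001F1 against CC002F1 and CC075F1 (x axis) for every tested gene of 33 lists (y axis, number of tested genes in brackets), with the list median as a black bar and genes past the adjusted p of 0.05 in red. Most medians lie near 0. Mx2, Ccl22 and Cxcl11 are the highest points of their lists and Ctla4 is the lowest of its list. Mx1 lies below Mx2, and C5ar1 (0.73) lies below an uncalled gene of its list (0.91). The skeletal muscle list is the farthest to the right without a call.

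The last question was how aPD1 changed CC001F1 tumors. With 2 tumors against 2 there is no test within the line, and the values are a description. Of 11025 genes with a mean of at least 5 CPM, 15.8% had both aPD1 values above both isotype values and 16.4% had both below, and 15 of the former rose and 6 of the latter fell by at least 1 in mean log2(CPM + 1). The 5 lowest differences were all granzymes, serine proteases that killer cells release into their targets, from the same stretch of chromosome 14.

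Gzmc had 43.9 and 67.4 CPM with isotype and 17.1 and 21.3 CPM with aPD1 in CC001F1, a difference of -1.46 in log2(CPM + 1). In CC002F1 it had 10.4 and 28.3 CPM with isotype and 65.9 and 59.3 CPM with aPD1 (1.80), and in CC075F1 25.7 and 16 CPM against 119 and 70.9 CPM (2.13). The direction was thus opposite in CC001F1, where the isotype tumors were already high. Gzmd, Gzme, Gzmf and Gzmg differed by -1.77, -1.83, -1.79 and -1.92 in CC001F1, by 1.71 to 2.39 in CC002F1 and by 2.47 to 2.92 in CC075F1. Gzmb, the granzyme of most cytotoxic T and NK cells, had 25.2 and 31.5 CPM with isotype and 10.9 and 44.7 CPM with aPD1, so the antibody groups overlapped (-0.32, against 0.86 and 2.20 in the other lines). Gzma differed by -0.25, 0.00 and 2.07 in the 3 lines.

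**Figure D5:**
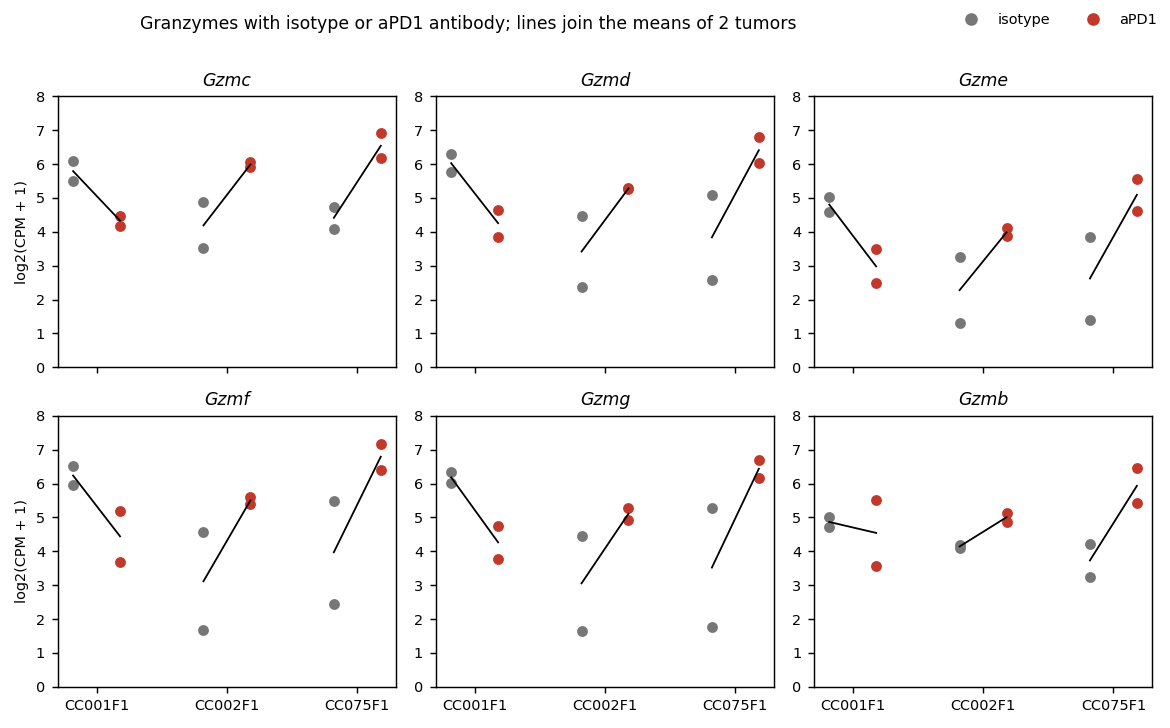
Levels of 6 granzymes as log2(CPM + 1) (y axis) in the 4 tumors of each responder line (x axis), isotype in gray and aPD1 in red, with lines joining the means of 2 tumors. In CC001F1 the lines fall for Gzmc, Gzmd, Gzme, Gzmf and Gzmg, while they rise in CC002F1 and CC075F1.

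Whether the antibody change differed between CC001F1 and the other responder lines was tested as an interaction over the 12 tumors. DESeq2 called 7 genes of 24828 (0.0282%), 6 more negative (0.0242%) and 1 more positive (0.00403%) in CC001F1. Gzmc had an interaction of -3.52 on the log2 scale (SE 0.63, DESeq2 adjusted p 0.000535), and the other 4 granzymes that fell had -3.79 to -3.90 with larger errors (SE 1.16 to 1.5) and were not called. Clec4n, the fungal receptor dectin-2 of macrophages, had 25.6 and 30.4 CPM with isotype and 18.7 and 12.2 CPM with aPD1, while it went from 10.6 and 9.21 CPM to 26.4 and 24.8 CPM in CC002F1 and from 19.8 and 11.5 CPM to 34.0 and 31.5 CPM in CC075F1 (interaction -2.06, SE 0.38). Fcgr2b, the inhibitory Fc receptor, had an interaction of -1.02 (SE 0.19), with 126 and 149 CPM against 114 and 121 CPM in CC001F1. Cd55, which shields cells from complement, had -2.41 (SE 0.49), and the orphan receptor Gprc5b had -0.78 (SE 0.17).

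These calls were few and depended on single libraries and on the tool. With the quasi-likelihood test of edgeR 0 genes passed, although the unadjusted p of 835 was under 0.05. Without CC001F1 isotype replicate 2, a shallow library, DESeq2 called 1 gene, which was not among the 7 (Gzmc and Clec4n then had a DESeq2 adjusted p of 0.132, Fcgr2b 0.225), and without CC001F1 aPD1 replicate 2 it called 54, of which 5 were among the 7. The calls of Cd55 and Gprc5b were lost without CC001F1 isotype replicate 1 (0.20 and 0.16), isotype replicate 2 (0.132 and 0.466) or aPD1 replicate 1 (0.122 and 0.2). Leaving out CC001F1 aPD1 replicate 1, CC002F1 aPD1 replicate 2 or CC075F1 isotype replicate 2 gave 11, leaving out CC075F1 isotype replicate 1 gave 17, and leaving out CC075F1 aPD1 replicate 2 gave 12. Against all 5 other lines 0 genes were called.

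The 8 genes with the largest rise with aPD1 in CC001F1 included Mx1, Rsad2, Gbp2b, 3 chemokines and Tlr9. On the lists, 4 of 15 type I interferon genes and 3 of 15 chemokines had both aPD1 values above both isotype values. The share of all genes was 15.8%, so these counts do not set either list apart. Mx1 went from 46.6 and 48.7 CPM to 52.6 and 221 CPM, and Rsad2, the antiviral enzyme viperin, from 44.4 and 65.8 CPM to 68.4 and 199 CPM. Gbp2b, an interferon-induced GTPase, went from 2.91 and 4.0 CPM to 7.36 and 33.8 CPM. The inflammatory chemokines Ccl3 and Ccl4 went from 1.64 and 3.38 CPM to 3.93 and 12.4 CPM and from 2.93 and 3.83 CPM to 4.24 and 15.2 CPM. Cxcl13, which attracts B cells, went from 14 and 18.7 CPM to 26.2 and 65.8 CPM, and Tlr9, a sensor of DNA, from 14.5 and 12.7 CPM to 16.3 and 60.4 CPM. In each of these genes the aPD1 replicate 2 value was the highest of the 4, and that of replicate 1 lay between it and the isotype values. The pseudogene Cbx3-ps6 went from 5.17 and 17.2 CPM to 18.3 and 25.5 CPM. Besides the granzymes and Clec4n, Gm14440 went from 20.4 and 26.8 CPM to 12.0 and 6.30 CPM. Mgl2, a lectin of macrophages and dendritic cells, went from 12.6 and 8.80 CPM to 6.93 and 3.35 CPM.

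Over whole lists, the median antibody difference in CC001F1 was 0.04 for cytotoxic T cell genes, against 0.83 in CC002F1 and 0.68 in CC075F1. For NK cell genes it was -0.35 against 1.02 and 0.78. The CC001F1 aPD1 tumors lay on opposite sides of the isotype tumors, with cytotoxic T cell sums of 81.5 and 216 CPM around 140 and 152 CPM and NK cell sums of 28.2 and 67.5 CPM around 41.7 and 43.8 CPM. For the interferon-gamma signature the median was 0.13 against 0.78 and 0.67. The type I interferon list had 0.84 against 0.77 and 0.66, and MHC class II genes had 0.27 against 0.82 and 0.42. The isotype sums of CC001F1 on these lists lay above those of CC002F1 and CC075F1. They were 140 and 152 against 74.0 to 113 CPM for cytotoxic T cell genes and 41.7 and 43.8 against 20.9 to 34.5 CPM for NK cell genes. For MHC class II genes they were 2422 and 2283 against 943 to 2000 CPM. The part of this starting level in the smaller differences was not tested. In CC001F1, aPD1 replicate 2 alone lay above both isotype tumors in both sums, with 1686 CPM against 429 and 539 CPM for type I interferon genes and 4214 CPM against 2422 and 2283 CPM for MHC class II genes. Replicate 1 had 502 and 2396 CPM. None of the genes on these lists had a called interaction. Hypoxia and glycolysis genes were the 1 list with every member separated, as all 8 had both aPD1 values above both isotype values in CC001F1, beside 15.8% of all genes, with a median of 0.43 against 0.12 and 0.18. The 3 medians share no tumors, and they were compared as values without a test of their difference.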

How the data were processed

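Poly(A) RNA of 23 tumors was sequenced. According to the study's methods and the labels, the authors aligned reads with Bowtie 1.2.3 to transcriptomes of the founder strains on GRCm38 and estimated expected counts per gene over founder haplotypes. The deposited expected counts are not scaled for depth, and reads shared by near-identical genes are divided between them. They were rounded to whole numbers (16.95% were not whole). Names and coordinates came from GENCODE vM21 on GRCm38, which matched 26681 of 26869 identifiers, and the 188 others held 0.099% of counts.

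CC001F1 was compared with CC002F1 and CC075F1 with the Wald test of DESeq2 1.42.0 in R 4.3.3, as the study used DESeq2, with antibody as a term, genes with at least 5 counts in sum and Benjamini-Hochberg adjustment. The antibody difference was tested as an interaction. Alternatives included edgeR 4.0.16, other scalings, filters, a depth term, other comparison lines and leaving out each tumor. In simulated data 200 genes were changed, all with a mean of at least 50 counts. The host fit of DESeq2 recovered 94% of genes changed 1 log2 unit and 97% of those changed 2. It made 40 false calls among 23639 genes, where edgeR gave 89%, 97% and 8. The interaction fit of DESeq2 recovered 71% and 89%, with 49 false calls among 23664 genes, where edgeR gave 56%, 81% and 10. CPM used TMM scaling over the 12 tumors and a pseudocount of 1. The Cxcl9 to Spp1 ratio was tested by two-sided exact permutation within antibody. Shared sequence was searched in GENCODE vM21 transcripts, with blastn 2.17.0 for the closest gene.

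Genes were named by rule. These were the 12 largest differences each way among calls with a mean of at least 50 normalized counts and no overlap, all genes on or off, and the genes of the marker lists. For the antibody they were the 8 largest each way with at least 5 CPM and no overlap. The other called genes given were chosen after their values were seen. The lines, lists, rules and tests were chosen with earlier results of these data known. P-values treat tumors of 1 line as independent, so they do not extend to other lines, and tumor replicates may also differ for technical reasons.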

Additional observations from a re-analysis of the deposited data

Results flagged for a closer look

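Some values of CC001F1 stood far from the other 3 tumors of the line in a gap test on 61 sets of 4 values (named genes and list sums), of which 11 were marked, where chance marks about 1 in 20. For genes these were, in normalized counts, Mx1 at 9368 and Mmp13 at 3562 in aPD1 replicate 2, C5ar2 at 136 in aPD1 replicate 1, Gm10259 at 63.1 in isotype replicate 1 and Gm10093 at 0 in isotype replicate 2. For summed list levels in CPM, aPD1 replicate 2 had 70.9 for helper and regulatory T cells, 171 for type 1 dendritic cells, 4214 for MHC class II, 5273 for the IFN-gamma signature and 1686 for the type I interferon response. Isotype replicate 1 had 208 for pericytes and smooth muscle.

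The antibody change differed between CC001F1 and the other responder lines in the DESeq2 interaction for 7 genes. On the log2 scale Gzmc had -3.52, Cd55 -2.41, Clec4n -2.06, Fcgr2b -1.02 and Gprc5b -0.78. The transcript Gm37206, at 2.98 and 3.21 CPM with isotype and 0 with aPD1 in CC001F1, had -10.5, a fitted value that is no bound. The copy Gm5446, 98.8% identical to Srsf10, had 1.36.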

How the results depend on the processing

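The 72 host calls numbered 24 with edgeR, 109 with line at 3 levels, 169 against CC002F1 alone and 108 against CC075F1 alone. They numbered 120 in isotype tumors (90 higher and 30 lower) and 47 in aPD1 tumors (25 higher and 22 lower). With 1 tumor left out they numbered 49 (without CC001F1 isotype replicate 1) to 110 (without CC001F1 aPD1 replicate 1). The 7 interaction calls numbered 0 with edgeR, 1 with a depth term, 2 in deep libraries, 11 with all 23 tumors fitted, 21 with line at 3 levels, 182 against CC002F1 alone, 16 against CC075F1 alone, 0 against all 5 other lines, and 1 to 54 with 1 tumor left out. The cause was not tested. Genes on or off numbered 5 in place of 2 with an 8-fold gap. Clusters numbered 2 in place of 0 with all called genes and 3 with pairs counted, both chosen after seeing the data. The log2 difference of the Cxcl9 to Spp1 ratio turned positive against CC002F1 alone (0.10) and ran from -0.43 to 0.28 with 1 tumor left out, being 0.01 without CC001F1 isotype replicate 1, 0.28 without CC001F1 aPD1 replicate 1 and 0.03 without CC075F1 isotype replicate 2. With a pseudocount of 5, 11 genes in place of 21 differed by 1 between antibodies in CC001F1. With the replicate block, 75 host genes and 8 interactions were called. Deviations of same-numbered tumors had r of -0.36 to 0.41 over 15 pairs of groups (median -0.03, 3 above 0.1). Whether some groups shared a batch was not tested. Over the named genes, 1551 alternative values kept direction and side of the threshold, 537 kept direction only and 0 reversed. With 2 tumors per antibody, small antibody changes in CC001F1 could not be detected.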
